A study of Saccharomyces cerevisiae with 8 samples.

Results

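Transcript levels of 59 ribosome assembly factor genes were examined in 3 yeast strains that all lack IRE1. The genes were taken by name, from standard symbols of the NOP, NOC, UTP, RRP, DBP and MAK series and related genes, and each was found on the array by its systematic name: 59 of 59 matched, out of 6576 systematic names on the array. Each gene had 1 probe, spotted 9 to 10 times per array, and was well above background on all 8 arrays, so 59 of 59 were among the 6240 genes tested. Grouped by known role, 23 of the genes act in assembly of the small ribosomal subunit, 31 in assembly of the large subunit and 5 in both.

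Ribosome assembly factors are the proteins that turn the long precursor ribosomal RNA (pre-rRNA) into ribosomal subunits without being part of the finished ribosome. In the nucleolus the first of them, the UTP complexes and the box C/D ribonucleoproteins, bind the nascent transcript and build the small-subunit processome, while RNA helicases, GTPases, rRNA methyltransferases and scaffold proteins fold and process the precursor of the large subunit. In budding yeast these genes are a textbook example of a coexpressed group, the ribosome biogenesis regulon, whose transcripts follow nutrient supply and growth under the regulators Sfp1, Stb3, Dot6 and Tod6 and the kinases TORC1 and Sch9.

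The reference strain carried the deletion of IRE1, which encodes the sensor kinase and nuclease of the unfolded protein response in the endoplasmic reticulum (Δire1, n = 3). The 2 other strains had the same deletion. One of them overexpressed SSZ1, whose product is an Hsp70-like protein of the ribosome-associated chaperone complex (SSZ1OEΔire1, n = 2), and the other overexpressed it too and lacked SCJ1, the gene of a J-domain chaperone of the endoplasmic reticulum lumen (SSZ1OEΔire1Δscj1, n = 3). All cultures were in early log phase, at an OD600 of 0.2 to 0.3 in synthetic medium at 30 °C with shaking at 200 rpm. How SSZ1 was overexpressed and how many clones a strain comprised are not given in the sources used here. No strain with an intact IRE1 gene was among the samples, so each difference is one between strains without Ire1. The labels call the samples of a strain independent without naming separate cultures, so the p-values describe only how far such samples lay apart, a spread that may be technical.

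One-colour Agilent arrays were used, 1 per sample. A level is the processed spot signal of a gene in log2, with the 75th percentile of the array subtracted, so that 0 is the signal of that percentile, and a difference is the difference of 2 group means on this log2 scale. A gene passed the test when its limma p, adjusted over all 6240 genes by the Benjamini-Hochberg method, was under 0.05, and only such genes are said to have risen or fallen. Because every level is relative to its array, a fall means a smaller share of the labelled RNA, and in a bulk culture a change in every cell cannot be told apart from a larger one in some of them. The targeted genes were checked first. SSZ1 was 7.30-fold higher in SSZ1OEΔire1 than in Δire1 (adjusted p = 0.000668) and 5.29-fold higher in SSZ1OEΔire1Δscj1 (adjusted p = 0.00018), SCJ1 was well above background on 0 of the 3 SSZ1OEΔire1Δscj1 arrays and was at least 317-fold lower than in Δire1 (adjusted p = 2.78e-08), and IRE1 was well above it on 0 of 8 arrays. Here "at least" sets the mean of the bright group against the lowest signal that passed the background flag on each dim array.

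Arrays differed in signal, slide position and likeness to their replicates, and the signal difference cannot be told apart from strain. The 75th percentile signal was 9041 to 10016.5 on the SSZ1OEΔire1Δscj1 arrays and 5037 to 7152 on the others, and the 2 slide rows were shared unevenly: in row 1 the 2 SSZ1OEΔire1 arrays sat beside 2 of the Δire1 arrays (replicates 1 and 2), and in row 2 the 3 SSZ1OEΔire1Δscj1 arrays sat beside Δire1 replicate 3. Δire1 replicate 2 stood apart from replicates 1 and 3. Over the 59 genes its median absolute difference was 0.14 from replicate 1 and 0.11 from replicate 3, while replicates 1 and 3 differed by 0.034. Between the SSZ1OEΔire1 arrays the same measure was 0.053, and between SSZ1OEΔire1Δscj1 arrays it was 0.066 to 0.097. The spots of a gene on 1 array had a median SD of 0.044. Results that rest on Δire1 replicate 2 are therefore given with and without it.

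Relative to the other transcripts on the array, 23 of the 59 assembly factor genes fell in SSZ1OEΔire1 and 39 fell in SSZ1OEΔire1Δscj1. Genes of both ribosomal subunits were among them, 0 rose in either strain, and 19 passed in neither. Of all genes tested 3.91% and 16.9% fell in these strains, and 7.52% and 21.4% rose. Of the 1560 genes with the highest mean signal, which hold 52 of the 59, 7.44% and 36.7% fell. With arrays scaled on spike-in probes 0 of the 59 passed, and 13 of the 59 were below 0 in SSZ1OEΔire1Δscj1. With each gene set relative to its mean on the Δire1 arrays, the median of the 59 genes was −0.25 and −0.33 on the SSZ1OEΔire1 arrays and −0.30, −0.30 and −0.25 on the SSZ1OEΔire1Δscj1 arrays, against −0.027, 0.041 and −0.0077 on the Δire1 arrays. The 5 arrays of the overexpressing strains thus lay apart from the 3 Δire1 arrays, and the medians of those 2 strains overlapped.

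**Figure D1:**
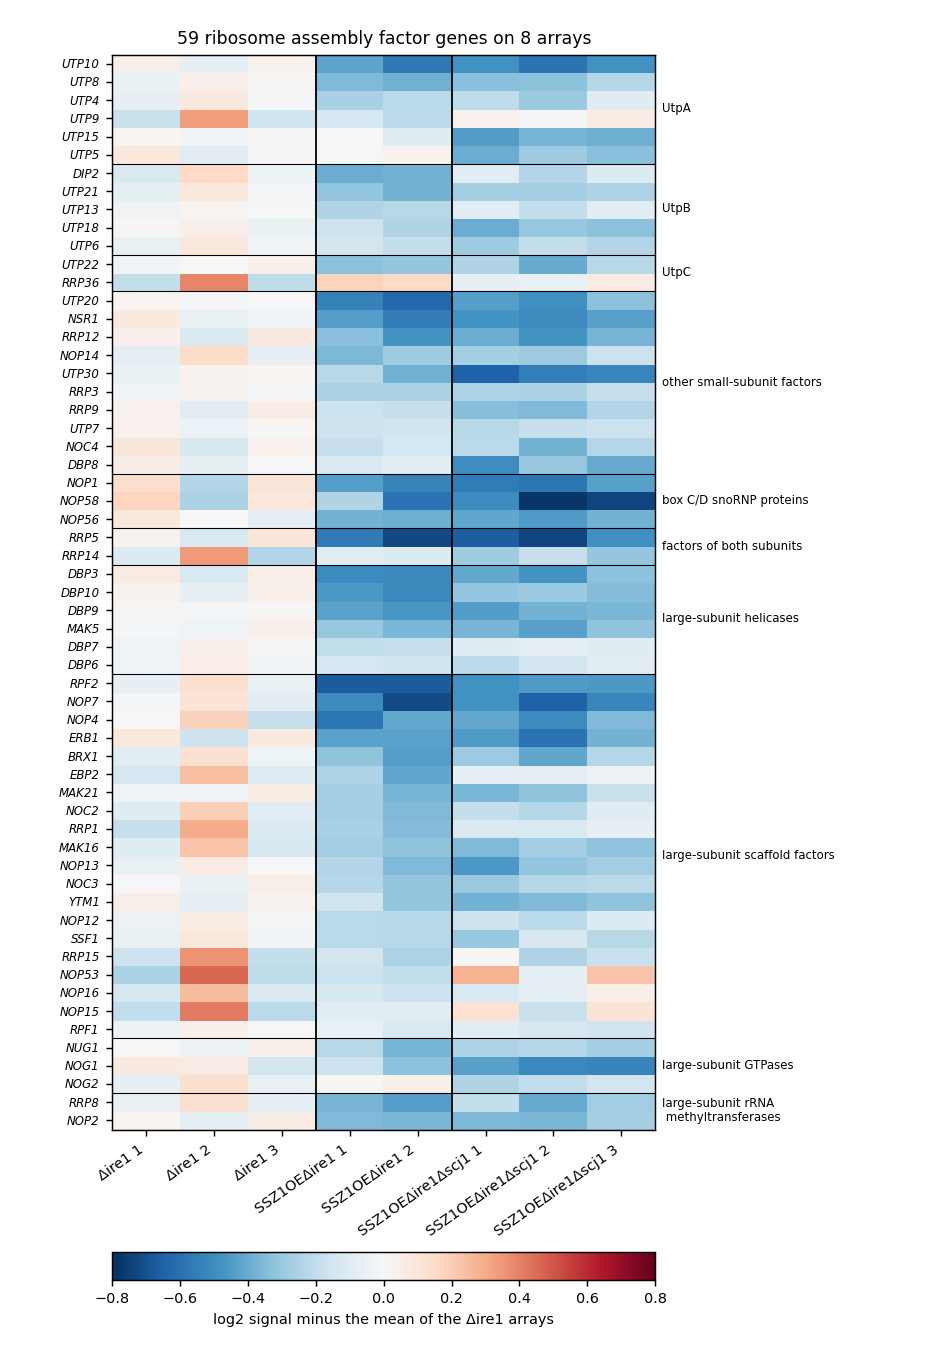
Heat map of the 59 genes (rows, ordered by role and then by their difference in SSZ1OEΔire1) on the 8 arrays (columns, by strain and replicate). Colour gives the log2 signal minus the mean of the 3 Δire1 arrays, blue for lower and red for higher. Most rows are blue on all 5 arrays of the overexpressing strains, and the red cells gather on Δire1 replicate 2, at genes such as NOP53, NOP15 and RRP36.

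Comparing SSZ1OEΔire1 with Δire1 addresses how transcript levels differ when SSZ1 is overexpressed in cells without IRE1. Of the 59 assembly factor genes, 23 fell and 0 rose (42 lower and 0 higher at an unadjusted p under 0.05). Among all genes tested, 3.91% fell and 7.52% rose. The differences of the 23 genes ran from −0.67 (RPF2) to −0.30 (NUG1). The median difference of all 59 was −0.30, against 0.026 over all genes tested. Below 0 were 56 of the 59, or 54 without Δire1 replicate 2. In 48 of the 59 genes both SSZ1OEΔire1 arrays lay below all Δire1 arrays, which 19.5% of all genes did, and in 0 of the 59 both lay above them, which 26.9% of all genes did. The SE of a difference was 0.065 to 0.22 (median 0.083).

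The number of calls in this comparison depended on single arrays more than the size of the difference did. Without SSZ1OEΔire1 replicate 2, which leaves 1 array of that strain assumed to vary like the others, 0 of the 59 genes passed and the median was −0.25. The count was 8 without the other array of that strain, 10 when Δire1 replicate 1 and 8 when Δire1 replicate 3 was left out, and 11 and 13 without SSZ1OEΔire1Δscj1 replicates 1 and 3, with medians from −0.33 to −0.29. Within slide row 1, which holds 2 arrays of each strain, the median was −0.29 and 8 genes fell. With arrays scaled on 7 spike-in control probes in place of the 75th percentile, the median of all genes tested moved to 0.13 and that of the 59 genes to −0.20, and 0 of the 59 passed. Such a scaling moves every gene of an array alike and leaves the gap between these medians at −0.33 by construction. Quantile normalization, which can move it, gave a gap of −0.24 (median −0.28), and 22 genes fell.

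Comparing SSZ1OEΔire1Δscj1 with Δire1 shows the same genes in the strain that also lacks SCJ1. Here 39 of the 59 genes fell and 0 rose, where 16.9% of all genes tested fell and 21.4% rose. The median difference was −0.29, against 0.019 over all genes tested. Again 56 of the 59 genes were below 0, or 51 without Δire1 replicate 2. In 48 of the 59 genes all 3 SSZ1OEΔire1Δscj1 arrays lay below all Δire1 arrays (23.3% of all genes), and in 0 of the 59 they lay above (27.3% of all genes). Both comparisons use the same 3 Δire1 arrays, so their likeness is not independent evidence. Of the 59 genes, 22 fell in both comparisons (2.96% of all genes tested did), 17 passed in SSZ1OEΔire1Δscj1 and not in SSZ1OEΔire1 (14% of all genes fell in this way), 1 (DIP2) passed the other way round (0.946%), and 19 passed in neither. Passing in 1 of these tests and not in the other does not show that the strains differ, which the direct comparison of the overexpressing strains tests.

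The count of 39 was 26 to 39 when 1 array was left out and 12 within slide row 2, where Δire1 is 1 array (median −0.29). Spike-in scaling turned the direction in this comparison: the median of all genes tested moved to 0.43, that of the 59 genes to 0.12, and 0 of the 59 passed. The gap between the medians, −0.31, is fixed by construction there, and with quantile normalization it was −0.17 and 32 genes fell. The split of calls over all genes moved with the scaling too. For SSZ1OEΔire1 it was 244 lower and 469 higher in the main scaling, 376 and 339 with quantile normalization, 347 and 371 with median scaling and 21 and 184 with spike-in scaling. For SSZ1OEΔire1Δscj1 it was 1057 and 1333, 1381 and 943, 1573 and 989, and 43 and 2023.

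**Figure D2:**
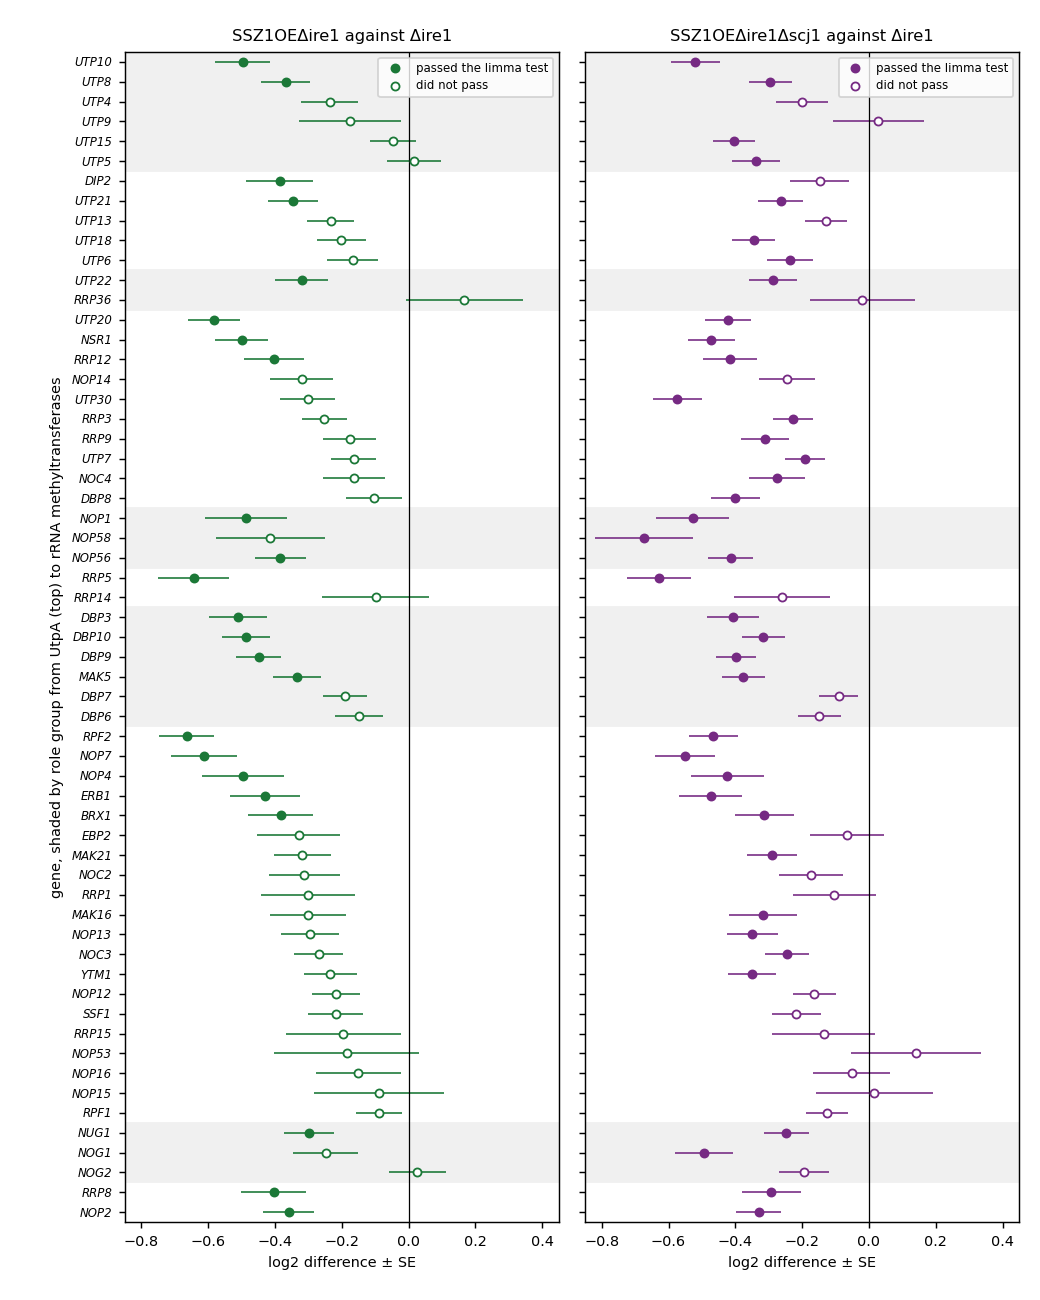
Differences of the 59 genes from Δire1 on the log2 scale (horizontal axis) in SSZ1OEΔire1 (left) and SSZ1OEΔire1Δscj1 (right). Points are fitted differences from limma, bars are their SE, filled points passed the test (23 on the left and 39 on the right), and shading separates the role groups. On both sides 56 of the 59 points lie below 0. Without Δire1 replicate 2, not drawn, 54 and 51 of the 59 were below 0.

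The UtpA complex is the first to bind the 5′ end of the pre-rRNA, and in yeast it is also linked to transcription of the ribosomal DNA. Its 6 measured genes did not move as one. UTP10, which encodes the largest UtpA subunit, stood at 1.47, 1.37 and 1.46 on the Δire1 arrays, at 1.01 and 0.86 on the SSZ1OEΔire1 arrays and at 0.95, 0.85 and 0.95 on the SSZ1OEΔire1Δscj1 arrays. It fell by 0.50 (SE 0.082, adjusted p = 0.0122) in SSZ1OEΔire1 and fell by 0.52 (SE 0.074, adjusted p = 0.00265) in SSZ1OEΔire1Δscj1, and the 5 arrays of the overexpressing strains did not overlap with Δire1. UTP8 also passed in both tests (−0.37, adjusted p = 0.0215, and −0.30, adjusted p = 0.0113), while UTP4, which encodes a WD-repeat subunit, passed in neither (−0.24, adjusted p = 0.122, and −0.20, adjusted p = 0.0746).

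UTP5 and UTP15, 2 other WD-repeat subunits of UtpA, stood near Δire1 in SSZ1OEΔire1 and lower in the strain without SCJ1. UTP15 stood at 1.02, 0.98 and 1.01 on the Δire1 arrays, at 1.0 and 0.91 on the SSZ1OEΔire1 arrays and at 0.55, 0.63 and 0.61 on the SSZ1OEΔire1Δscj1 arrays. UTP5 stood at 1.29, 1.12 and 1.21 on the Δire1 arrays, at 1.21 and 1.23 on the SSZ1OEΔire1 arrays and at 0.81, 0.92 and 0.87 on the SSZ1OEΔire1Δscj1 arrays. For both genes the SSZ1OEΔire1 arrays lay within or next to the range of Δire1, and all 3 SSZ1OEΔire1Δscj1 arrays lay below all other arrays. UTP15 fell by 0.40 (SE 0.063, adjusted p = 0.00359) and UTP5 fell by 0.34 (SE 0.071, adjusted p = 0.00976) against Δire1. In SSZ1OEΔire1 their differences were −0.047 (adjusted p = 0.707) and 0.016 (adjusted p = 0.924).

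The direct comparison of the 2 overexpressing strains tests that contrast. There UTP15 fell by 0.36 (SE 0.07, adjusted p = 0.0235) and UTP5 fell by 0.35 (SE 0.08, adjusted p = 0.0338), and they were the 2 of the 59 genes that passed, or 3.39%, which is below the 5.61% of all genes tested that fell there. These calls are sensitive to the arrays used: UTP15 passed under 12 and UTP5 under 11 of the 20 alternative settings, with differences from −0.40 to −0.045 and from −0.40 to −0.042, the smallest with spike-in scaling. Neither passed when SSZ1OEΔire1 replicate 1 or 2, SSZ1OEΔire1Δscj1 replicate 1 or 2, or Δire1 replicate 3 was left out, and without SSZ1OEΔire1Δscj1 replicate 3 1 of them did. UTP9, the sixth UtpA gene of the 59, stood at 1.33, 1.84 and 1.35 on the Δire1 arrays, at 1.36 and 1.30 on the SSZ1OEΔire1 arrays and at 1.54, 1.49 and 1.57 on the SSZ1OEΔire1Δscj1 arrays. Its SSZ1OEΔire1Δscj1 arrays lay above Δire1 replicates 1 and 3 and below replicate 2 (difference 0.028, SE 0.14, adjusted p = 0.883). Without Δire1 replicate 2 it was higher by 0.20 (adjusted p = 0.0277).

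**Figure D3:**
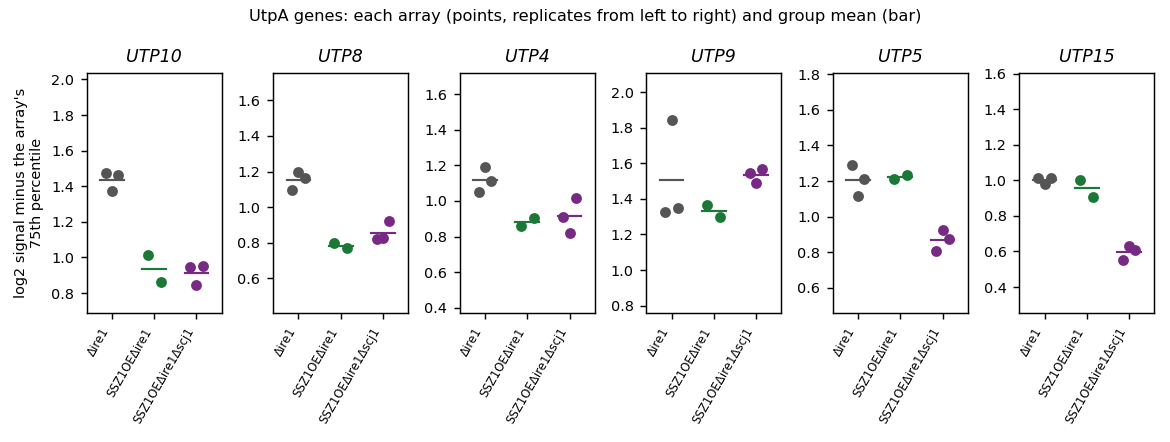
Levels of the 6 UtpA genes by strain (log2 signal, 75th percentile of the array = 0, a panel per gene with its own axis of the same span). Points are arrays in replicate order and bars are group means. UTP10 and UTP8 are lower in both overexpressing strains, UTP5 and UTP15 are lower on the 3 SSZ1OEΔire1Δscj1 arrays, and UTP9 has 1 high Δire1 array, replicate 2.

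The UtpB complex joins the UtpA-bound precursor and lies next to the U3 small nucleolar ribonucleoprotein (snoRNP). Of its 5 genes among the 59, 2 fell in SSZ1OEΔire1 and 3 in SSZ1OEΔire1Δscj1, with medians of −0.23 and −0.24. Of all genes tested 3.91% and 16.9% fell. UTP21 stood at 0.60, 0.76 and 0.67 on the Δire1 arrays, at 0.36 and 0.30 on the SSZ1OEΔire1 arrays and at 0.40, 0.41 and 0.43 on the SSZ1OEΔire1Δscj1 arrays. It fell by 0.35 (SE 0.075, adjusted p = 0.0292) in SSZ1OEΔire1 and fell by 0.26 (SE 0.067, adjusted p = 0.0189) in SSZ1OEΔire1Δscj1, with no overlap between the strains and Δire1. UTP21 passed under 10 and 15 of the 20 alternative settings, in the same order. DIP2 fell by 0.39 (SE 0.099, adjusted p = 0.0469) in SSZ1OEΔire1, while in SSZ1OEΔire1Δscj1 it stood −0.15 from Δire1 (adjusted p = 0.225) with overlapping arrays. The direct difference of DIP2 between those strains did not pass (0.24, SE 0.099, adjusted p = 0.147), so its calls are not shown to differ. UTP18 and UTP6 had the reverse order, passing in SSZ1OEΔire1Δscj1 (−0.34, adjusted p = 0.00664, and −0.24, adjusted p = 0.031) and not in SSZ1OEΔire1 (−0.20, adjusted p = 0.119, and −0.17, adjusted p = 0.202), and UTP13 passed in neither.

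UTP22 and RRP36, partners in the UtpC complex, had different calls, and the genes were not tested against each other. UTP22 stood at 0.96, 0.99 and 1.03 on the Δire1 arrays, at 0.66 and 0.68 on the SSZ1OEΔire1 arrays and at 0.75, 0.59 and 0.78 on the SSZ1OEΔire1Δscj1 arrays. It fell by 0.32 (SE 0.08, adjusted p = 0.044) in SSZ1OEΔire1 and fell by 0.29 (SE 0.072, adjusted p = 0.0179) in SSZ1OEΔire1Δscj1. UTP22 passed under 10 and 17 of the 20 alternative settings, in the same order. RRP36 stood at −0.88, −0.30 and −0.89 on the Δire1 arrays, at −0.51 and −0.53 on the SSZ1OEΔire1 arrays and at −0.75, −0.74 and −0.62 on the SSZ1OEΔire1Δscj1 arrays. Its Δire1 arrays spread widely, with replicate 2 higher than every other array of the 8, and its difference in SSZ1OEΔire1, 0.17, SE 0.17, adjusted p = 0.571, was the largest positive one of the 59 genes there. Without Δire1 replicate 2 that difference was 0.36 (adjusted p = 0.0150), and RRP36 then was the 1 gene of the 59 called higher. In SSZ1OEΔire1Δscj1 the full fit gave RRP36 a difference of −0.020 (SE 0.16, adjusted p = 0.929).

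The other small-subunit factors, 10 proteins of the processome and of later pre-40S particles, were lower in all their members. In both strains the arrays of 10 of 10 genes lay below Δire1 without overlap. Of all genes tested, 19.5% did so in SSZ1OEΔire1 and 23.3% in SSZ1OEΔire1Δscj1. Of the 10, 3 fell in SSZ1OEΔire1 (median −0.28) and 9 in SSZ1OEΔire1Δscj1 (median −0.36), against 3.91% and 16.9% of all genes tested. UTP20, which encodes a very large helical-repeat protein of the processome, stood at 1.13, 1.1 and 1.11 on the Δire1 arrays, at 0.57 and 0.49 on the SSZ1OEΔire1 arrays and at 0.67, 0.62 and 0.78 on the SSZ1OEΔire1Δscj1 arrays. It fell by 0.58 (SE 0.077, adjusted p = 0.00658) in SSZ1OEΔire1, where its signal fell by 33.2% on the linear scale, and fell by 0.42 (SE 0.069, adjusted p = 0.00427) in SSZ1OEΔire1Δscj1. NSR1, the yeast counterpart of nucleolin, an RNA-binding protein that organises the nucleolus, stood at 4.24, 4.10 and 4.14 on the Δire1 arrays, at 3.72 and 3.60 on the SSZ1OEΔire1 arrays and at 3.68, 3.65 and 3.72 on the SSZ1OEΔire1Δscj1 arrays. NSR1 fell by 0.50 (SE 0.079, adjusted p = 0.011) and fell by 0.47 (SE 0.07, adjusted p = 0.00319) in the same order, and its replicates were close together in every strain.

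UTP30, which encodes a protein with a fold like that of ribosomal protein L1, was lowest in the strain without SCJ1. It stood at −0.26, −0.17 and −0.18 on the Δire1 arrays, at −0.42 and −0.59 on the SSZ1OEΔire1 arrays and at −0.85, −0.76 and −0.73 on the SSZ1OEΔire1Δscj1 arrays. In SSZ1OEΔire1Δscj1 it fell by 0.57 (SE 0.074, adjusted p = 0.00198), the lowest adjusted p of the 59 genes in that comparison, and in SSZ1OEΔire1 its difference was −0.30 (adjusted p = 0.0567). Between the overexpressing strains it differed by −0.27 (adjusted p = 0.07), with no overlap between arrays. DBP8, a helicase gene of the small-subunit pathway, showed the same layout: the difference was −0.10 in SSZ1OEΔire1 (adjusted p = 0.456), −0.40 in SSZ1OEΔire1Δscj1 (adjusted p = 0.00639) and −0.30 between them (adjusted p = 0.0587). RRP12, a factor in export of pre-ribosomes, fell in both strains (−0.40, adjusted p = 0.0315, and −0.42, adjusted p = 0.00724). The helicase gene RRP3, the processome genes UTP7 and NOC4 and the U3 protein gene RRP9 fell in SSZ1OEΔire1Δscj1, with differences of −0.23, −0.19, −0.27 and −0.31, and did not pass in SSZ1OEΔire1. NOP14, whose product pairs with that of NOC4, did not pass in either (−0.32, adjusted p = 0.067, and −0.25, adjusted p = 0.052).

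Box C/D snoRNPs carry the methylation guide RNAs and the U3 RNA of the processome. Of the 3 genes of their core proteins among the 59, 3 fell in SSZ1OEΔire1Δscj1 and 2 in SSZ1OEΔire1. Of all genes tested 16.9% and 3.91% fell, in the same order. NOP56 stood at 3.33, 3.24 and 3.16 on the Δire1 arrays, at 2.87 and 2.85 on the SSZ1OEΔire1 arrays and at 2.83, 2.80 and 2.87 on the SSZ1OEΔire1Δscj1 arrays. It fell by 0.38 (SE 0.076, adjusted p = 0.0216) in SSZ1OEΔire1 and fell by 0.41 (SE 0.068, adjusted p = 0.00437) in SSZ1OEΔire1Δscj1. NOP56 passed under 12 and 17 of the 20 alternative settings, in the same order. NOP1, the gene of the methyltransferase fibrillarin, had differences of −0.49 (adjusted p = 0.0447) and −0.53 (adjusted p = 0.00913). NOP58, the partner of Nop56, had the steepest fall of the 59 genes in SSZ1OEΔire1Δscj1 (−0.67, SE 0.15, adjusted p = 0.0105), and its SSZ1OEΔire1 arrays, at 1.77 and 1.42, overlapped with Δire1 replicate 2 at 1.75. NOP1 and NOP58 were the 2 genes more than 0.3 lower on Δire1 replicate 2 than on the mean of replicates 1 and 3.

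RRP5 encodes an RNA-binding protein required for cleavages on the way to both subunits. It stood at 1.82, 1.67 and 1.88 on the Δire1 arrays, at 1.23 and 1.06 on the SSZ1OEΔire1 arrays and at 1.13, 1.05 and 1.30 on the SSZ1OEΔire1Δscj1 arrays. RRP5 fell by 0.64 (SE 0.11, adjusted p = 0.0124) in SSZ1OEΔire1 and fell by 0.63 (SE 0.096, adjusted p = 0.00338) in SSZ1OEΔire1Δscj1. On the linear scale its signal fell by 36% and fell by 35.3%, and its 5 arrays of overexpressing strains lay below all 3 Δire1 arrays. RRP14, the other factor of both subunits, passed in neither (−0.099, adjusted p = 0.727, and −0.26, adjusted p = 0.185). Its Δire1 replicate 2 was at 2.94, above replicates 1 and 3 at 2.49 and 2.36.

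The 6 DEAD-box helicase genes of the large subunit among the 59 gave 4 that fell in both strains and 2 that passed in neither. Of all genes tested 2.96% fell in both. DBP10 stood at 0.27, 0.18 and 0.29 on the Δire1 arrays, at −0.21 and −0.27 on the SSZ1OEΔire1 arrays and at −0.061, −0.049 and −0.10 on the SSZ1OEΔire1Δscj1 arrays. It fell by 0.49 (SE 0.071, adjusted p = 0.00879) in SSZ1OEΔire1 and fell by 0.32 (SE 0.063, adjusted p = 0.00824) in SSZ1OEΔire1Δscj1. DBP9 stood at 0.38, 0.35 and 0.38 on the Δire1 arrays, at −0.064 and −0.10 on the SSZ1OEΔire1 arrays and at −0.081, −0.014 and 0.0032 on the SSZ1OEΔire1Δscj1 arrays. It fell by 0.45 (SE 0.067, adjusted p = 0.00975) in SSZ1OEΔire1 and fell by 0.40 (SE 0.06, adjusted p = 0.00335) in SSZ1OEΔire1Δscj1, and the replicates of each strain lay close together. DBP3 (−0.51, adjusted p = 0.0133, and −0.41, adjusted p = 0.00709) and MAK5 (−0.33, adjusted p = 0.029, and −0.38, adjusted p = 0.00514) fell in both strains as well. DBP7 and DBP6, both of the earliest pre-60S particles, did not pass in either, at −0.19 and −0.15 in SSZ1OEΔire1 and −0.091 and −0.15 in SSZ1OEΔire1Δscj1. The arrays of all 6 helicase genes lay below Δire1 without overlap in both strains. Among all genes, 19.5% did so in SSZ1OEΔire1 and 23.3% in SSZ1OEΔire1Δscj1.

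The large-subunit scaffold factors, 20 genes, held the gene with the largest difference in SSZ1OEΔire1 and 10 of the 19 genes that passed in neither strain. In SSZ1OEΔire1 5 of the 20 fell (median −0.30), and in SSZ1OEΔire1Δscj1 10 fell (median −0.23). Of all genes tested 3.91% and 16.9% fell, and of the 1560 with the highest mean signal 7.44% and 36.7%. RPF2, whose product with Rrs1 brings the 5S ribonucleoprotein into the pre-60S particle, stood at 0.84, 1.04 and 0.85 on the Δire1 arrays, at 0.24 and 0.24 on the SSZ1OEΔire1 arrays and at 0.42, 0.45 and 0.45 on the SSZ1OEΔire1Δscj1 arrays. It fell by 0.67 (SE 0.082, adjusted p = 0.0053) in SSZ1OEΔire1, where its signal fell by 36.9% on the linear scale, and fell by 0.47 (SE 0.074, adjusted p = 0.00373) in SSZ1OEΔire1Δscj1, where its signal fell by 27.6%. NOP7 stood at 2.0, 2.11 and 1.92 on the Δire1 arrays, at 1.5 and 1.30 on the SSZ1OEΔire1 arrays and at 1.52, 1.36 and 1.49 on the SSZ1OEΔire1Δscj1 arrays. NOP7 fell by 0.61 (SE 0.1, adjusted p = 0.0117) in SSZ1OEΔire1 and fell by 0.55 (SE 0.089, adjusted p = 0.00409) in SSZ1OEΔire1Δscj1. Its product forms a complex with those of ERB1 and YTM1: ERB1 fell in both strains (−0.43, adjusted p = 0.0407, and −0.47, adjusted p = 0.00784), and YTM1 in SSZ1OEΔire1Δscj1 (−0.35, adjusted p = 0.00868) but not in SSZ1OEΔire1 (−0.23, adjusted p = 0.102).

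Of the remaining scaffold genes, NOP4, which encodes an RNA-binding protein, and BRX1, of the Brix family to which RPF1, RPF2 and SSF1 also belong, fell in both strains. Their differences were −0.50 and −0.38 in SSZ1OEΔire1 and −0.42 and −0.31 in SSZ1OEΔire1Δscj1. MAK21, NOC3, NOP13 and MAK16 fell in SSZ1OEΔire1Δscj1, by 0.29, 0.25, 0.35 and 0.32, and did not pass in SSZ1OEΔire1. NOC2, the partner of Mak21 and Noc3, passed in neither (−0.31, adjusted p = 0.104, and −0.17, adjusted p = 0.19). SSF1 did not pass in either strain (−0.22, adjusted p = 0.133, and −0.22, adjusted p = 0.0511). Its paralogue SSF2, which is not one of the 59 genes, stood −0.056 from Δire1 in SSZ1OEΔire1 (adjusted p = 0.684) and −0.03 in SSZ1OEΔire1Δscj1 (adjusted p = 0.753). Their transcripts are alike, and how far each probe also reads the other was not tested. NOP12 and RPF1 passed in neither strain either.

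NOP53, NOP15, NOP16, RRP1, RRP15 and EBP2, the 6 other scaffold genes, passed in neither strain, and all 6 were high on Δire1 replicate 2. NOP53, whose product docks the exosome for processing of the second internal spacer, stood at 0.11, 0.82 and 0.16 on the Δire1 arrays, at 0.19 and 0.16 on the SSZ1OEΔire1 arrays and at 0.64, 0.28 and 0.59 on the SSZ1OEΔire1Δscj1 arrays. Its difference in SSZ1OEΔire1Δscj1 was 0.14, SE 0.19, adjusted p = 0.589, the largest positive one of the 59 genes there, and without Δire1 replicate 2 it was 0.37 (adjusted p = 0.0349). EBP2, an early pre-60S factor gene, stood at 0.86, 1.24 and 0.90 on the Δire1 arrays, at 0.75 and 0.59 on the SSZ1OEΔire1 arrays and at 0.92, 0.92 and 0.96 on the SSZ1OEΔire1Δscj1 arrays. Between the overexpressing strains NOP53 differed by 0.33 (SE 0.22, adjusted p = 0.335) and EBP2 by 0.27 (SE 0.12, adjusted p = 0.186), the 2 largest positive differences there. Without Δire1 replicate 2, which changes the estimated spread, EBP2 passed there (adjusted p = 0.0360).

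The 3 GTPase genes of the large subunit gave 3 patterns. NUG1 stood at 1.64, 1.61 and 1.69 on the Δire1 arrays, at 1.42 and 1.27 on the SSZ1OEΔire1 arrays and at 1.40, 1.42 and 1.38 on the SSZ1OEΔire1Δscj1 arrays. It fell by 0.30 (SE 0.075, adjusted p = 0.045) in SSZ1OEΔire1 and fell by 0.25 (SE 0.067, adjusted p = 0.0241) in SSZ1OEΔire1Δscj1. These calls are sensitive too: NUG1 passed under 8 and 12 of the 20 alternative settings, in the same order. NOG1 fell in SSZ1OEΔire1Δscj1 alone of the 2 tests (−0.49, adjusted p = 0.00538, against −0.25, adjusted p = 0.144 in SSZ1OEΔire1), and the direct difference did not pass (−0.25, SE 0.097, adjusted p = 0.131). NOG2 stood at 1.27, 1.46 and 1.27 on the Δire1 arrays, at 1.34 and 1.37 on the SSZ1OEΔire1 arrays and at 1.09, 1.14 and 1.19 on the SSZ1OEΔire1Δscj1 arrays. It stood near Δire1 in SSZ1OEΔire1 (0.025, SE 0.085, adjusted p = 0.881) and did not pass in SSZ1OEΔire1Δscj1 (−0.19, adjusted p = 0.0797). The direct difference of NOG2 between the overexpressing strains did not pass either (−0.22, SE 0.085, adjusted p = 0.126). All 3 SSZ1OEΔire1Δscj1 arrays lay below all other arrays. Of all genes 23.3% lay below Δire1 in this way and 29.5% below SSZ1OEΔire1.

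Both genes of the 59 grouped as rRNA methyltransferases of the large subunit fell in both strains, where 2.96% of all genes tested did. NOP2, which encodes a cytosine methyltransferase of the 25S rRNA, stood at 1.32, 1.22 and 1.35 on the Δire1 arrays, at 0.94 and 0.93 on the SSZ1OEΔire1 arrays and at 0.94, 0.93 and 1.03 on the SSZ1OEΔire1Δscj1 arrays. NOP2 fell by 0.36 (SE 0.076, adjusted p = 0.027) in SSZ1OEΔire1 and fell by 0.33 (SE 0.068, adjusted p = 0.00902) in SSZ1OEΔire1Δscj1. It passed under 11 and 18 of the 20 alternative settings, in the same order. RRP8, which encodes an adenine methyltransferase of the same rRNA, had differences of −0.40 (adjusted p = 0.0403) and −0.29 (adjusted p = 0.034). In each overexpressing strain all arrays lay below Δire1 for both genes (19.5% of all genes in SSZ1OEΔire1 and 23.3% in SSZ1OEΔire1Δscj1).

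The comparison of SSZ1OEΔire1Δscj1 with SSZ1OEΔire1 addresses how the strain that also lacks SCJ1 differs from the one that does not. Besides the 2 UtpA genes that fell, 0 of the 59 genes rose, where 6.3% of all genes tested rose. At an unadjusted p under 0.05, 6 were lower and 3 higher. The median difference was 0.027, against −0.0047 over all genes tested, and 34 of the 59 genes were above 0. The arrays of the strains did not overlap in 13 genes that were lower and 17 that were higher, or 22% and 28.8% of the 59, where 29.5% of all genes did so in each direction. Shares this near the background are no result about these genes. Small-subunit genes had a median of −0.013 and large-subunit genes one of 0.056. A difference that did not pass is not shown to be absent: the SE was 0.065 to 0.22.

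Most of the 59 probes were bright: 52 were among the 1560 of the 6240 genes with the highest mean signal. Of those 1560 genes 7.44% fell in SSZ1OEΔire1, and 22 of the 52 did. In SSZ1OEΔire1Δscj1 36.7% of the 1560 fell, and 36 of the 52 did, so the background for bright probes was higher there than over all genes. The median difference of the 1560 genes was −0.047 and −0.16 in these comparisons, against −0.30 and −0.29 for the 52 genes.

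Δire1 replicate 2 bore on which of the 59 genes passed. On that array 10 of the 59 genes were more than 0.3 above the mean of Δire1 replicates 1 and 3, led by NOP53 (0.69), NOP15 (0.61), RRP36 (0.59), RRP15 (0.53), RRP14 (0.51) and UTP9 (0.50), and followed by RRP1, NOP16, EBP2 and MAK16. Of these 10, 9 are among the 20 shortest of the 59 genes (663 to 1368 bases in the R64 annotation), and UTP9 is the exception. Across the 59 genes the deviation had a Pearson correlation of −0.43 with log2 gene length (Spearman −0.37), and across 5761 genes of the array with a length the values were −0.36 and −0.36. These are descriptions of 1 array across genes, which are not independent replicates. The source of the pattern was not tested.

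**Figure D4:**
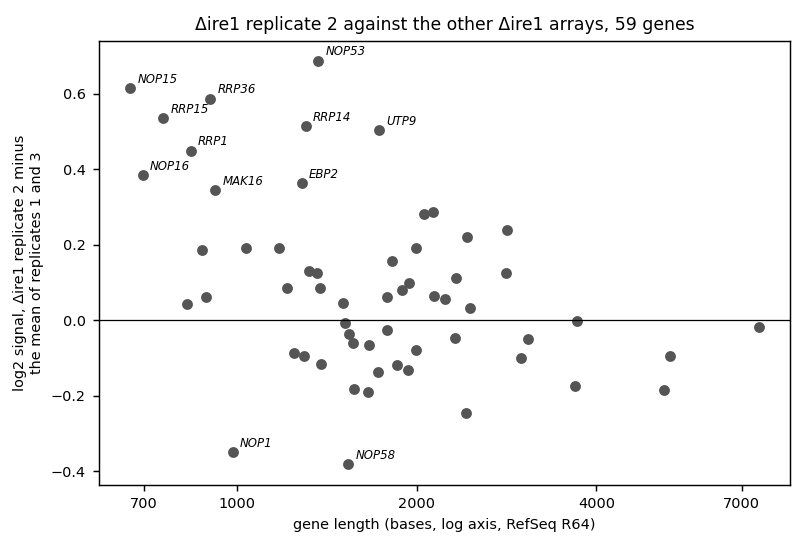
Deviation of Δire1 replicate 2 from the mean of Δire1 replicates 1 and 3 (vertical axis, log2) against gene length (horizontal axis, bases, log scale) for the 59 genes. Each point is a gene, and genes beyond 0.3 in either direction are named. Of the 10 genes above 0.3, 9 are among the 20 shortest and UTP9 is longer, and NOP1 and NOP58 are the 2 below −0.3.

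Leaving out Δire1 replicate 2 made the median difference smaller and the calls more numerous over all genes, not only among the 59. In SSZ1OEΔire1 the median became −0.25, 29 genes fell and 1 (RRP36) rose, where 9.49% of all genes fell and 14.7% rose, and the 23 genes of the full fit were all among the 29. In SSZ1OEΔire1Δscj1 the median became −0.27, 39 fell, the same 39 genes as in the full fit, and 2 (UTP9 and NOP53) rose, where 23.5% of all genes fell and 27.2% rose. Between the overexpressing strains 5 fell and 4 rose (UTP9, EBP2, RPF2 and DIP2), or 8.47% and 6.78% of the 59, below the 12.2% and 12.3% of all genes, which is no result about these genes. By length, the medians of the 20 shortest, 20 middle and 19 longest genes in the full fit were −0.26, −0.24 and −0.35 in SSZ1OEΔire1 and −0.25, −0.33 and −0.29 in SSZ1OEΔire1Δscj1.

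The other genes of the pathway were taken from lists of assembly factors, snoRNP proteins, RNA polymerases, exosome subunits, regulators and ribosomal proteins. Their counts stand against 3.91% of all genes tested that fell in SSZ1OEΔire1 and 16.9% in SSZ1OEΔire1Δscj1. Other large-subunit assembly genes resembled the 59 genes: 21 of 51 fell and 0 rose in SSZ1OEΔire1 (median −0.30), and 31 fell and 0 rose in SSZ1OEΔire1Δscj1 (−0.28). They include MAK11 (−0.63, SE 0.07, adjusted p = 0.0041 in SSZ1OEΔire1), which encodes a WD-repeat protein of early pre-60S particles, and SDA1, another pre-60S factor gene (−0.51, SE 0.076, adjusted p = 0.00324 in SSZ1OEΔire1Δscj1). Of the other small-subunit assembly genes, 13 of 50 fell in SSZ1OEΔire1 (median −0.22) and 28 in SSZ1OEΔire1Δscj1 (−0.24), and 0 rose. NOP9, an RNA-binding factor gene (−0.54, SE 0.07, adjusted p = 0.00624), had the lowest adjusted p in the former comparison and the helicase gene DHR2 (−0.56, SE 0.067, adjusted p = 0.00162) in the latter. With spike-in scaling the medians of these 2 lists turned to 0.14 and 0.18 in SSZ1OEΔire1Δscj1, as that of the 59 genes did.

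RNA polymerase I, which transcribes the pre-rRNA, had 4 of 15 genes lower and 1 higher in SSZ1OEΔire1 (median −0.18) and 7 lower and 1 higher in SSZ1OEΔire1Δscj1 (−0.25, or 0.17 with spike-in scaling). The subunit gene RPA12 fell in the first of these (−0.47, SE 0.069, adjusted p = 0.00898) while RRN5, of the upstream activating factor, rose (0.49, SE 0.078, adjusted p = 0.0114), and RPA190, the largest subunit's gene, fell in SSZ1OEΔire1Δscj1 (−0.58, SE 0.088, adjusted p = 0.00339). Of 14 exosome genes 3 fell in SSZ1OEΔire1 and 5 in SSZ1OEΔire1Δscj1, with MTR4, the helicase gene of the nuclear exosome, among both (−0.46, SE 0.085, adjusted p = 0.0164, and −0.52, SE 0.076, adjusted p = 0.00291). Of 13 box H/ACA and further box C/D genes 1 and 6 fell and 0 and 1 rose, and CBF5, the pseudouridine synthase gene, fell in SSZ1OEΔire1Δscj1 (−0.58, SE 0.10, adjusted p = 0.00531). Of 13 genes listed for RNA polymerase III 2 and 7 fell and 0 and 1 rose. The 1 that rose was MAF1 (0.38, adjusted p = 0.0215), which encodes a repressor of that polymerase. Over all genes tested 3.91% and 16.9% fell in these comparisons, and of the 1560 brightest 7.44% and 36.7%. Without SSZ1OEΔire1 replicate 2, 0 genes of any of these lists passed in SSZ1OEΔire1.

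Of 11 regulators of ribosome genes, which include regulators of ribosomal protein genes, 1, the kinase gene TOR1, fell in SSZ1OEΔire1 (−0.31, SE 0.072, adjusted p = 0.0348). The list median was 0.050, or −0.0099 with median scaling and −0.012 with quantile normalization. In SSZ1OEΔire1Δscj1 3 of the 11 fell. Of all genes tested 16.9% fell there and 5.61% between the overexpressing strains. Between the overexpressing strains MRS6 (−0.47, SE 0.10, adjusted p = 0.0328), which encodes a Rab escort protein that binds Sfp1, and SCH9 (−0.39, SE 0.099, adjusted p = 0.0462) fell. Of the 11, 0 passed there with spike-in scaling, the slide row block or the replicate block, or when Δire1 replicate 3, either SSZ1OEΔire1 array or any 1 SSZ1OEΔire1Δscj1 array was left out.

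Ribosomal protein genes, the other large group of the ribosome programme, had different counts in the 2 overexpressing strains. In SSZ1OEΔire1 0 of 136 fell and 2 rose (median −0.025, or 0.081 with spike-in scaling), where 23 of the 59 assembly factor genes fell. Of all genes tested 3.91% fell there, 16.9% in SSZ1OEΔire1Δscj1 and 5.61% in the direct comparison. In SSZ1OEΔire1Δscj1 93 of 136 fell and 0 rose (median −0.44), and in the direct comparison with SSZ1OEΔire1 72 fell and 0 rose (median −0.44), where 2 of the 59 assembly factor genes fell. These counts shrank to 29 and 3 with quantile normalization and to 0 and 0 with spike-in scaling, with medians of −0.11 and −0.12 and of −0.020 and −0.13. In the direct comparison 0, 3, 2 and 5 ribosomal protein genes fell without SSZ1OEΔire1 replicates 1 and 2 and SSZ1OEΔire1Δscj1 replicates 1 and 2, and 38 and 23 without Δire1 replicates 1 and 3, with medians from −0.47 to −0.39. On single arrays the ribosomal protein median was 0.014 and −0.066 in SSZ1OEΔire1 and −0.48, −0.52 and −0.30 in SSZ1OEΔire1Δscj1. Many ribosomal protein genes come in near-identical pairs that a probe may not tell apart.

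**Figure D5:**
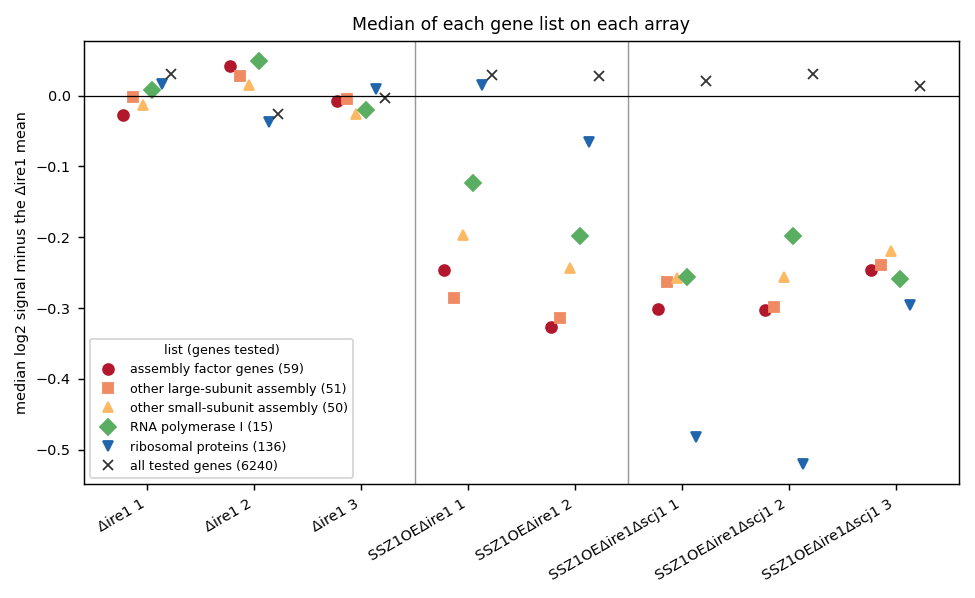
Median of each gene list on each of the 8 arrays, as log2 signal minus the Δire1 mean of each gene (vertical axis). Symbols are lists, with the number of genes tested in the key, and vertical lines separate the strains. The 59 assembly factor genes and the other assembly lists lie between −0.33 and −0.20 on all 5 arrays of the overexpressing strains, and the ribosomal protein genes are that low or lower on the 3 SSZ1OEΔire1Δscj1 arrays.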

How the data were processed

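RNA of 8 yeast samples was labelled with cyanine 3 from 100 ng, per the labels' protocols. The deposited spot intensity values come from Agilent Feature Extraction 10.7.1.1, a version given by the submitters' processing notes. Per the file headers they are background-subtracted, spatially detrended and not scaled between arrays. The file of 1 array keeps fewer digits than the others. The deposited value table holds the authors' log2 values with scale and centring unstated. Its columns followed the scanner's log2 signal after subtraction of the 75th percentile and of each probe's median over arrays (median absolute difference 0.00098 to 0.0039, column medians −0.032 to 0.011), and it served as an alternative. The number of arrays limits the precision. Of the non-control spots, 90.5% to 95.9% were well above background and 0 were saturated.

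Log2 processed signals were averaged over the spots of a probe without outlier spots, and each array was centred on its 75th percentile of non-control probes. A gene was tested if more than 0.5 of its spots were well above background on every array of at least 1 strain, and the brightest probe stood for a gene with several. Group means over all 8 arrays were compared with limma 3.58.1 in R 4.3.3 (eBayes, two-sided, Benjamini-Hochberg per comparison). The fit was tested on simulated data. Symbols and gene lengths came from a RefSeq table of R64, in which 5903 of 6576 names matched. The array design was built on sacCer1, so no coordinates are given.

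The 59 genes, their roles, the other lists, the tests and the alternatives were chosen with earlier results of these data known. Any of the 59 could be named. Full values were due for SSZ1 and SCJ1, for up to 6 called genes per comparison with the lowest adjusted p in the direction with more calls, for the 2 with the largest difference the other way, and for the gene of each role with the lowest adjusted p in SSZ1OEΔire1. Other genes came only from the lists, at most 2 per list and comparison by lowest adjusted p, and SSF2. MAF1 was named in addition, as the gene of the RNA polymerase III list that rose. Promoter sequences, also planned, are not shown because no sequence table was used here. The 20 alternatives covered scaling, background correction, the filter, genes with several probes, the deposited table, the arrays in the fit, slide row and replicate number as blocks, array weights, the variance model and leaving out each array.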

Additional observations from a re-analysis of the deposited data

How the results depend on the processing

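For SSZ1OEΔire1 against Δire1 the number of the 59 genes called lower (23) was 0 with spike-in scaling, 8 with slide row as a block, 8 with the replicate block, 9 with those strains alone and 43 with array weights, and ran from 0 to 29 when 1 array was left out. Genes called higher (0) were 1 with array weights and 0 to 1 with an array left out. Calls over all genes (713) were 205, 252, 289, 384 and 2355 under the same settings in that order, and 60 to 1507. The median (−0.30) was −0.36 with median scaling, −0.20 with spike-in probes, −0.25 with array weights and −0.33 to −0.25 with an array left out. For SSZ1OEΔire1Δscj1 against Δire1 the count (39) was 0 with spike-in scaling and 12 with the slide row block. Genes called higher (0) were 3 with array weights and 0 to 2 with an array left out. Calls over all genes (2390) were 1065 with the slide row block, 3807 with array weights and 1440 to 3165 with an array left out, and the median (−0.29) was −0.23 with quantile normalization, −0.39 with median scaling and 0.12 with spike-in probes. For SSZ1OEΔire1Δscj1 against SSZ1OEΔire1 the count of lower genes (2) was 0 with spike-in scaling, the slide row block and the replicate block, 5 with array weights and 0 to 5 with an array left out. Higher genes (0) were 1 with quantile normalization, 4 with array weights and 0 to 4 with an array left out. Calls over all genes (743) were 161 with spike-in scaling, 2 with the slide row block, 1700 with array weights and 3 to 1528 with an array left out. The median (0.027) was 0.066 with quantile normalization, −0.015 with median scaling, 0.34 with spike-in scaling and −0.018 to 0.043 with an array left out. With spike-in scaling the sign turned in SSZ1OEΔire1Δscj1 against Δire1 for DBP10 (0.10), DBP9 (0.019), UTP15 (0.013), UTP5 (0.079), UTP21 (0.15), UTP22 (0.13), NOP56 (0.0025), NUG1 (0.17) and NOP2 (0.086). In SSZ1OEΔire1, NOG2 turned to −0.035 with median scaling and −0.0048 with the slide row block and ran from −0.0081 to 0.089 with an array left out. In SSZ1OEΔire1Δscj1, UTP9 turned to −0.074 with median scaling and ran from −0.060 to 0.20 with an array left out. Of 740 values of named genes under 20 alternatives, 602 kept direction and call, 113 kept direction and lost the call, 9 gained it and 16 changed sign. Precision is limited by the number of arrays, and the 59 genes were above background on all of them. No slide row holds both SSZ1OEΔire1Δscj1 and SSZ1OEΔire1, so that block compares them only through Δire1. For the other changes the cause was not tested. Deviations of same-numbered arrays correlated at −0.037 to 0.21, so the replicate numbers were not taken as pairs, and the block is given as a check only.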
